A study of Triticum aestivum with 48 samples.

Results

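The fructan exohydrolase genes 6-FEH and 1-FEHw2 of bread wheat were read from every probe set that the array annotation pairs with either name. That gave 4 of the 61290 probe sets on the array. Of these, 3 belong to 6-FEH and 1 belongs to 1-FEHw2. The probe sets of 6-FEH are told apart here by the endings of their names on the array, A1_a_at, A1_x_at and S1_at. No probe set was paired with the related genes 1-FEHw1 and 1-FEHw3. The gene of the 1-FEHw2 probe set also carries the name 1-FEH. Whether its probes bind transcripts of 1-FEHw1 or 1-FEHw3 was not examined. The Affymetrix Wheat Genome Array was used to measure transcripts in whole roots and whole shoots of 15 day old seedlings of the genotypes HD2967, K9107, K307 and Chotilarma (CL). All seedlings grew in vermiculite and perlite on a modified MS medium whose nitrogen came from calcium nitrate, at 8 mM in the control groups and at 0.08 mM in the stressed groups. Each of the 16 groups of genotype, tissue and nitrogen supply held 3 arrays, 48 in all. Several seeds shared a pot, and the labels do not say which pot a given array came from, so the p-values measure the spread between these arrays only.

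Fructans are polymers of fructose built from sucrose and stored in the vacuoles of temperate grasses. Fructan exohydrolases remove the terminal fructose units. 1-FEH enzymes act on the linkages of inulin-type fructan and 6-FEH enzymes on those of levan-type fructan, the main type in grass leaves. The enzymes are related in sequence to the cell wall invertases, and in wheat they are best known for releasing stem fructan during grain filling. Low nitrogen is known to raise the fructan content of leaves in temperate grasses.

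The values are log2 signal intensities. The array medians fell in 4 separate ranges, called normalization sets 1 to 4 here, of 12 arrays each: 1.14 to 1.26, 4.33 to 4.47, 4.61 to 4.68 and 5.32 to 5.39. The CL arrays made up the whole of set 1, so for CL scale and genotype cannot be told apart, and CL differences are not given as folds. Differences of 6-FEH are given on the log2 scale only, since many of its values lie at the low end of their arrays. Values of HD2967, K9107 and K307 can be compared directly only within a set. Every fit therefore carried the set as a term, and set-adjusted means have each set's offset taken off. The mean of 4 photosynthesis markers (PRK, PsbO, PsbP and petC) parted roots from shoots in every set: roots lay at 1.51 to 1.97 and shoots at 8.54 to 9.58 in set 1, and over the other sets roots lay at 4.72 to 6.67 and shoots at 10.35 to 12.19. These 4 were picked from a list of 36 probe sets of photosynthesis genes, which did not all go 1 way. At control nitrogen, averaged over HD2967, K9107 and K307, 21 of the 36 were called lower in roots and 3 higher. Over all probe sets, 17.5% were called lower and 21.6% higher. The labels of 2 arrays conflict. HD2967 stressed shoot array 1 has a description that names the root and CL stressed root array 1 a tissue entry that names the shoot, but their marker means were 11.19 and 1.97, on the side of their titles. The table holds no detection calls, so whether a low value lay above background was not measured. In whole tissue, fewer cells of a type and less RNA per cell cannot be told apart.

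In shoots, 2 of the 3 probe sets of 6-FEH rose at low nitrogen on average over the 4 genotypes, while the third probe set and 1-FEHw2 did not pass. A1_a_at rose by 1.03 ± 0.22 log2 units (SE, 3 arrays per group) and A1_x_at by 0.90 ± 0.18. Each SE rests on a spread per probe set that all groups of the fit share. It does not measure the spread within a single genotype. The estimates were highest in HD2967 and K9107 and at or below 0.37 in K307 and CL, but the test of a difference between genotypes did not pass. No probe set passed in roots, and the difference between the tissues passed its own test. These are 2 of 4 probe sets called, both higher, where 0.842% of all 61179 probe sets tested were called in either direction and 0.539% were called higher.

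In HD2967 shoots, A1_a_at read 3.24, 3.49 and 2.39 in control arrays 1 to 3, all in set 3. It read 5.25 in stressed array 1, 5.01 in stressed array 2 and 7.83 in stressed array 3, which lie in sets 4, 2 and 4. All stressed values stood above all control values, but the supplies share no set in these shoots, so no difference within a set exists. Stressed array 2 lies in the set with lower medians than the controls' set and still read above each of them. The fitted response was 2.21 ± 0.57 (95% interval 1.02 to 3.41) and did not pass singly (limma adjusted p = 0.525, where 0.036% of probe sets passed in HD2967 shoots). Stressed array 3 read far above the other stressed arrays, and without it the response was 1.58. Without stressed array 1, whose labels conflict, it was 2.77 and passed (limma adjusted p = 0.0329).

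K9107 shoots read 1.64, 3.00 and 3.04 on the same probe set in control arrays 1 to 3, in sets 2, 4 and 4. Stressed arrays 1 to 3, in sets 2, 4 and 3, read 3.47, 4.40 and 3.16. Within a set no value overlapped: the stressed array was 1.83 above the control in set 2 and 1.38 above the control mean in set 4. The response was 1.52 ± 0.44 (95% interval 0.58 to 2.45) and did not pass singly (limma adjusted p = 0.211, against 0.105% of probe sets called).

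K307 and CL had small estimates on A1_a_at. K307 controls 1 to 3 read 1.90, 3.24 and 2.42 in sets 2, 4 and 3, and stressed arrays 1 to 3 read 2.47, 2.53 and 2.38 in sets 2, 2 and 3. The difference was 0.60 within set 2 and -0.04 within set 3, and the response of 0.37 ± 0.43 had an adjusted p of 1.00 in limma, against 0.0458% called. CL controls read 0.62, 0.68 and 0.74 and stressed arrays 0.54, 0.67 and 0.88, at the very low end of the CL scale. These groups overlapped, and the CL response was 0.01 ± 0.42 (limma adjusted p = 0.993, against 3.36% called). That SE carries the spread of all shoot groups. The SDs were 0.06 in CL control and 0.17 in CL stressed shoots, but 1.31, set-adjusted, in HD2967 stressed shoots.

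**Figure D1:**
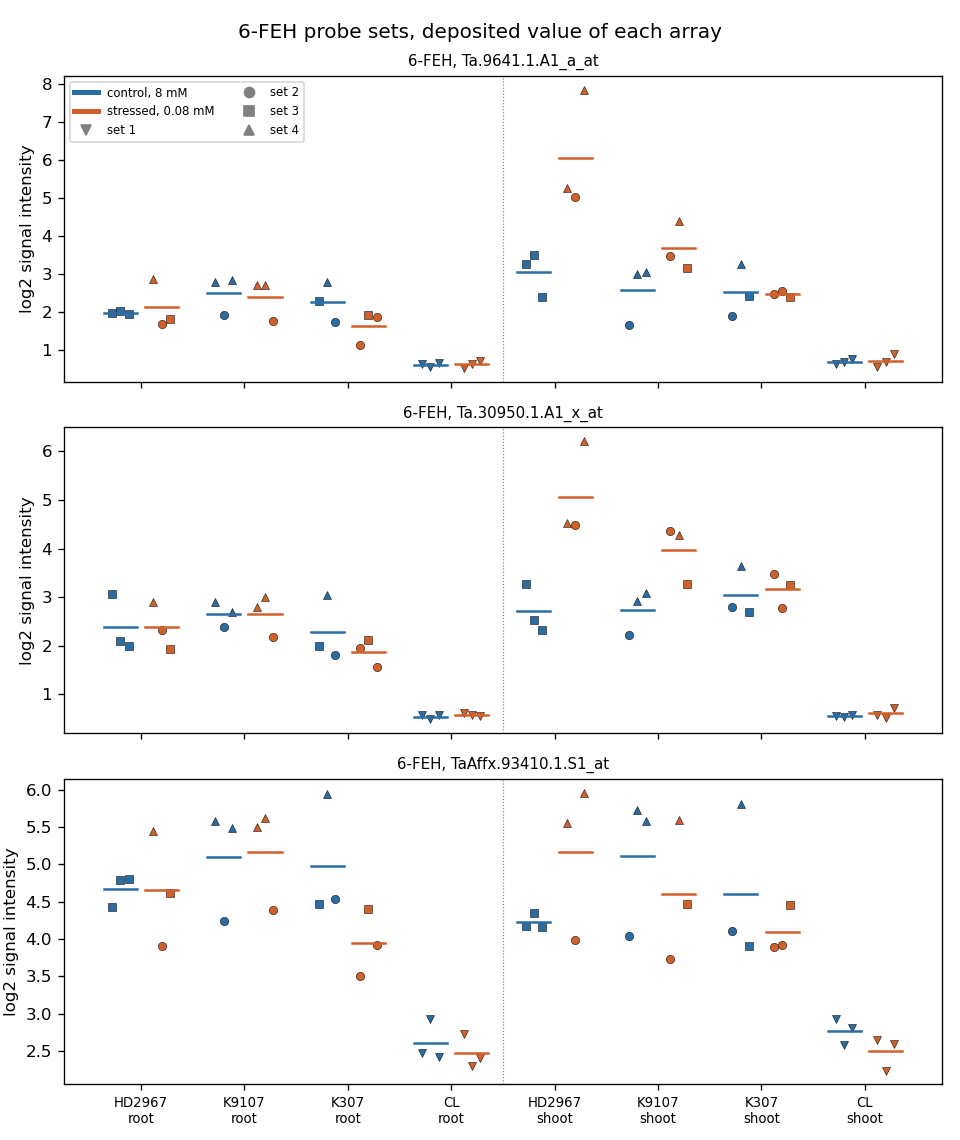
Deposited log2 signal intensity of the 3 probe sets of 6-FEH in each array (vertical axes), by genotype and tissue (horizontal axis). Blue is control (8 mM) and orange is stressed (0.08 mM), marker shape gives the normalization set and bars are group means. The stressed HD2967 and K9107 shoots stand high on A1_a_at and A1_x_at. On S1_at the HD2967 shoots have means of 5.17 stressed and 4.23 control as deposited, in sets that are not shared, and the fitted response is 0.12.

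The second probe set of 6-FEH, A1_x_at, had its highest estimates in the same genotypes. The suffix _x_at of its name marks probes that can also bind other transcripts. Whether the probes of A1_a_at or S1_at bind other transcripts was not examined. In HD2967 shoots its controls read 3.27, 2.53 and 2.32 and its stressed arrays 4.52, 4.48 and 6.21, with no overlap but again with no shared set. In K9107 shoots the controls read 2.23, 2.92 and 3.09 and the stressed arrays 4.36, 4.28 and 3.27. The difference was 2.13 within set 2 and 1.28 within set 4, with no overlap in either.

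K307 shoots read 2.79, 3.65 and 2.69 in the controls and 3.48, 2.78 and 3.25 in the stressed arrays on A1_x_at. The difference was 0.34 within set 2, where the supplies overlapped, and 0.57 within set 3. CL shoots read 0.55, 0.52 and 0.57 in the controls and 0.58, 0.52 and 0.72 in the stressed arrays, which overlapped. The responses were 1.65 ± 0.46 in HD2967 (limma adjusted p = 0.598), 1.54 ± 0.36 in K9107 (0.112), 0.36 ± 0.35 in K307 and only 0.06 ± 0.34 in CL, so no genotype passed singly. The 95% interval was 0.68 to 2.61 for HD2967 and 0.79 to 2.30 for K9107.

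The average over genotypes passed for both probe sets. For A1_a_at the 95% interval of the rise of 1.03 was 0.57 to 1.49 (limma adjusted p = 0.0355), and for A1_x_at the interval of the rise of 0.90 was 0.53 to 1.27 (limma adjusted p = 0.0219). Averaged over the genotypes other than HD2967, the values were 0.63 (limma adjusted p = 0.245) and 0.65 (0.145), so both calls were lost without that genotype. Without the 12 CL arrays the averages were 1.37 ± 0.29 (0.0889) and 1.18 ± 0.24 (0.0637), and with no set term 1.01 (0.198) and 0.94 (0.0588). A replicate block, which pairs the same-numbered control and stressed arrays of a genotype and tissue, gave 1.03 (0.385) and 0.86 (0.338). Leaving out 1 shoot array at a time gave 0.83 to 1.21 for A1_a_at, with the call lost in 13 of 24 cases, and 0.77 to 1.02 for A1_x_at, with the call lost in 5 of 24. The sign held in each of these fits.

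Whether the shoot responses of 6-FEH differ between genotypes did not pass: the limma F-test of genotype by nitrogen gave an adjusted p of 0.358 for A1_a_at and 0.334 for A1_x_at, where 0.0588% of probe sets passed. In a fit of all 48 arrays, which estimates the set offsets from both tissues, these became 0.0152 and 0.0391. In that fit the response of A1_a_at also passed in HD2967 shoots (2.43, limma adjusted p = 0.000935) and in K9107 shoots (1.43, 0.0224). There A1_x_at likewise passed in HD2967 (1.75, 0.0140) and in K9107 (1.51, 0.00674).

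Set-adjusted values of the 2 responding probe sets went together in shoots and not in roots. Pearson's r was 0.90 over the 18 shoot arrays of HD2967, K9107 and K307, 0.09 over their 18 root arrays and 0.94 over the 12 group means. The root arrays lay low on both probe sets, at percentiles 0.0033 to 7.99 of their arrays on A1_a_at and 0.74 to 23.7 on A1_x_at. The shoot arrays include those of the response for which these probe sets were singled out. The points share arrays and genotypes, and any probes the sets have in common were not examined, so these are descriptions.

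**Figure D2:**
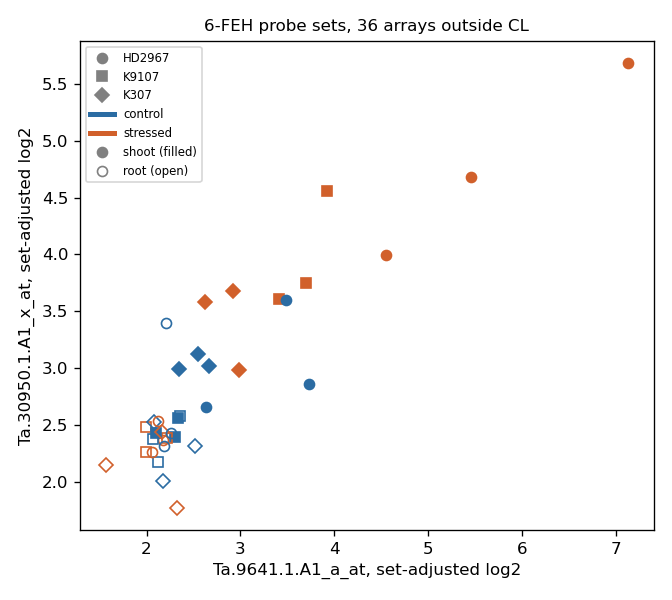
Set-adjusted log2 level of A1_x_at (vertical axis) against that of A1_a_at (horizontal axis) in the 36 arrays outside CL, 1 point per array. The stressed HD2967 and K9107 shoots lie at the upper right and the root arrays in the lower left corner, where r was 0.09.

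The remaining probe set of 6-FEH, S1_at, did not follow the other two. In HD2967 shoots it read 4.17, 4.35 and 4.16 in the controls of set 3 and 5.56, 3.99 and 5.96 in the stressed arrays of sets 4, 2 and 4. In K9107 shoots it read 4.04, 5.73 and 5.58 in the controls and 3.73, 5.59 and 4.47 in the stressed arrays, each value following its set: the differences were -0.31 within set 2 and -0.06 within set 4. Its values in K307 shoots were 4.11, 5.81 and 3.91 in the controls and 3.90, 3.93 and 4.46 in the stressed arrays, with differences of -0.19 in set 2 and 0.55 in set 3.

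The CL shoots read 2.93, 2.59 and 2.81 on S1_at in the controls and 2.65, 2.24 and 2.60 in the stressed arrays, which overlapped. Its average shoot response was -0.03 ± 0.09 (limma adjusted p = 0.907), and the genotypes ran from -0.28 ± 0.17 in CL to 0.12 ± 0.23 in HD2967. Its r with A1_a_at over the 18 shoot arrays was 0.29 and with A1_x_at 0.22. Which homoeologous copy or transcript end each probe set reads is not given in the sources used here.

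In roots, no probe set of either gene passed for the average response, where 6.57% of all probe sets did. A1_a_at read 1.96, 2.02 and 1.94 in HD2967 root controls and 2.87, 1.67 and 1.81 in the stressed arrays, of which array 1 lies in set 4. K9107 roots read 2.77, 1.90 and 2.83 in the controls and 2.69, 2.69 and 1.77 in the stressed arrays. K307 roots read 2.27, 2.78 and 1.73 in the controls and 1.11, 1.92 and 1.87 in the stressed arrays. Within sets the stressed roots lay 0.11 to 0.35 below the controls in these genotypes, and the CL roots, at 0.53 to 0.70, overlapped. The average response was -0.09 ± 0.08 (limma adjusted p = 0.601), and in CL roots alone it was 0.01.

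A1_x_at had an average root response of -0.09 ± 0.12 (limma adjusted p = 0.754), with within-set differences from -0.45 in HD2967 to 0.12 in K307. HD2967 root control 1, at 3.06, stood apart from the other controls at 2.10 and 1.99. S1_at had an average of -0.21 ± 0.10 (limma adjusted p = 0.228). Its lowest root response was -0.58 ± 0.19 in K307 (limma adjusted p = 0.133, against 1.99% called), from controls at 4.47, 5.95 and 4.54 and stressed arrays at 3.51, 4.40 and 3.93. The difference there was -0.82 within set 2 and -0.07 within set 3, and without control array 1 it was -0.84 and passed (limma adjusted p = 0.0412). No probe set of 6-FEH passed in any genotype's roots, where 3.36% of all probe sets were called in HD2967, 0.907% in K9107 and 2.04% in CL. The limma F-test of genotype by nitrogen in roots gave adjusted p values of 0.541 to 0.944 for the 3 probe sets of 6-FEH, where 1.46% passed.

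The shoot response exceeded the root response for the 2 responding probe sets of 6-FEH. In the fit over all 48 arrays, the difference of the average responses was 1.16 ± 0.23 for A1_a_at (limma adjusted p = 0.00323) and 1.04 ± 0.20 for A1_x_at (limma adjusted p = 0.00340). So 2 of 4 probe sets passed in this direction, where 0.91% of all probe sets did. S1_at, at 0.19 ± 0.13 (0.530), and 1-FEHw2, at -0.05 ± 0.18 (0.938), did not pass. Both calls held with any 1 of the 48 arrays left out, over 0.98 to 1.31 and 0.92 to 1.14. They were lost when HD2967 was left out, at 0.71 (limma adjusted p = 0.219) and 0.69 (0.174), and with no set term (0.198 and 0.111).

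**Figure D3:**
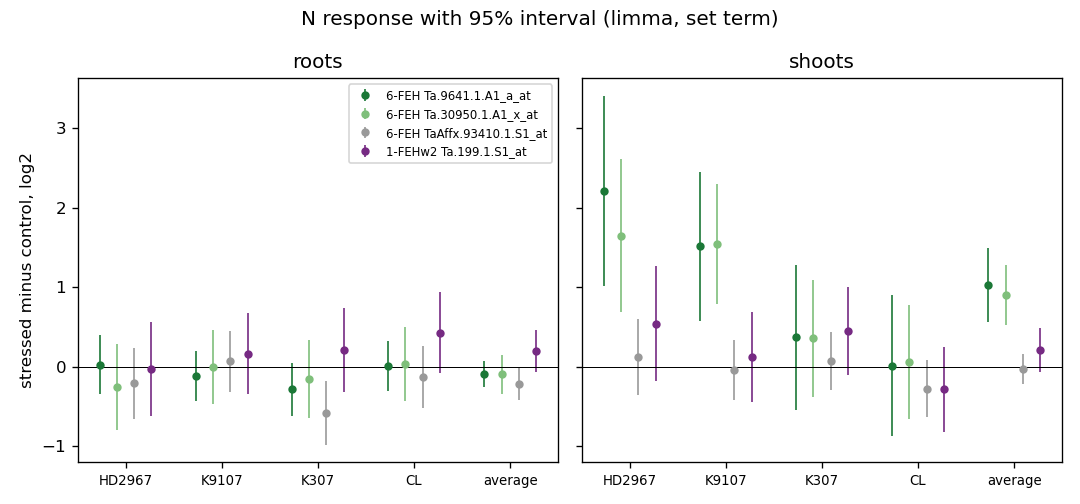
Fitted nitrogen response (stressed minus control, log2, vertical axis) of the 4 probe sets in roots and in shoots, for each genotype and for their average; points are estimates and bars 95% intervals from limma with the set term. In shoots the average of A1_a_at (1.03) and of A1_x_at (0.90) lies clear of 0, and in roots the average of every probe set is between -0.21 and 0.19.

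The estimates for markers of dividing cells also differed between the shoot groups, with calls in CL shoots only. The median response of 18 core histone probe sets in shoots was -0.65 for HD2967, 2.80 for K9107, -1.47 for K307 and 3.61 for CL, and that of the average was 1.16. Of these 18, 4 were called higher in CL shoots, where 3.36% of all probe sets were called. In the other genotypes and the average 0 were called, where 0.036% to 0.842% of all probe sets were called. For 10 tubulin probe sets the medians were -0.36, 1.17, -0.68 and 2.64, with 7 of 10 called higher in CL shoots and 0 in the other genotypes or the average. In 5 of 10 tubulin and 0 of 18 histone probe sets the nitrogen response was called higher in shoots than in roots, beside 0.91% of all probe sets. In HD2967 shoots the mean histone level ran from 5.72 to 9.87 in the controls and from 4.59 to 9.18 in the stressed arrays. Of 36 probe sets of photosynthesis genes, most of them of rbcl, none was called in the shoot average, where 0.842% of all probe sets were called. Their median was -0.16, beside -0.02 over all probe sets. The part of these shifts in the 6-FEH values was not tested.

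Between tissues at control nitrogen, 6-FEH differed little. Averaged over HD2967, K9107 and K307, roots minus shoots was -0.46 ± 0.18 for A1_a_at (limma adjusted p = 0.0454), -0.39 ± 0.17 for A1_x_at (0.0622) and 0.27 ± 0.11 for S1_at (0.0412). Here 17.5% of all probe sets were called lower in roots and 21.6% higher, so 1 call in each direction among 3 probe sets is near the background. Both calls were lost in some of the other settings. The call on A1_a_at was lost without 13 of the 48 arrays in turn and that on S1_at without 11.

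At low nitrogen the tissues stood apart on the responding probe sets. Roots minus shoots was -2.01 ± 0.18 for A1_a_at (limma adjusted p = 3.29e-11) with a 95% interval of -2.39 to -1.63. For A1_x_at it was -1.76 ± 0.17 (limma adjusted p = 6.24e-11) with an interval of -2.10 to -1.42. The stressed roots lay at percentiles 0.0033 to 6.04 of their arrays on A1_a_at and 0.74 to 13.2 on A1_x_at. Whether this low end limits these differences, or a fall of the root values at low nitrogen, was not tested. Here 16.6% of probe sets were lower in roots. No stressed root overlapped a stressed shoot within sets 2, 3 and 4 on either probe set, with differences of -0.90 to -3.08 for the first and -1.24 to -2.11 for the second. S1_at was at -0.03 ± 0.11 (limma adjusted p = 0.839).

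CL showed no tissue difference in 6-FEH. Roots minus shoots was -0.08 at control and -0.08 at low nitrogen for A1_a_at, and -0.01 and -0.03 for A1_x_at. All CL values of these 2 probe sets lay between 0.49 and 0.88, at the compressed low end of the CL scale, so a difference may not be measurable there. S1_at was at -0.16 and -0.02 in CL.

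The order of the set-adjusted group means (SD, n = 3 each) put HD2967 and K9107 stressed shoots first on A1_a_at and A1_x_at. For A1_a_at, HD2967 stressed shoots led at 5.72 ± 1.31 and did not overlap the next group, K9107 stressed shoots at 3.68 ± 0.26. HD2967 control shoots followed at 3.29 ± 0.58, above K307 stressed shoots at 2.84 ± 0.19. From K9107 stressed shoots down to K307 stressed roots at 2.02 ± 0.40 each group overlapped the next. The HD2967 shoots thus stood high on both supplies, but the test of genotype at control nitrogen in shoots did not pass (limma F-test adjusted p = 0.355, where 7.39% of probe sets passed).

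For A1_x_at the first 3 groups were the stressed shoots of HD2967 (4.79 ± 0.85), K9107 (3.97 ± 0.51) and K307 (3.41 ± 0.38), and every neighbour in the order overlapped. S1_at ran only from 4.98 in K307 control roots to 4.47 in K307 stressed roots, with every neighbour overlapping. Genotype at control nitrogen did not pass for these probe sets in shoots (limma adjusted p = 0.518 and 0.985). The same test in roots gave 0.863, 0.737 and 0.843 for the 3 probe sets, where 9.02% passed.

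The place of a probe set among all those of its own array is not changed by a shift of the whole array, but it carries no set term. It may still differ between sets: S1_at had group means at percentiles 73.7 to 79.3 in CL and at 41.3 to 52.6 in the other genotypes. In CL, set and genotype cannot be told apart. A1_a_at stood on average at percentile 23.1 in HD2967 control shoots and at 62.0 in the stressed shoots (48.1 to 80.4). In K9107 shoots it went from 5.74 (1.11 to 9.22) to 32.4 (25.4 to 36.8), with no overlap. K307 shoots went from 10.1 to 16.2 and CL shoots from 16.5 to 22.2, while the root groups lay between 2.28 and 13.0. In roots the probe set was thus among the lowest of its arrays.

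A1_x_at went from percentile 16.5 to 49.8 in HD2967 shoots, from 9.02 to 36.7 in K9107 shoots, from 20.9 to 30.1 in K307 shoots and from 7.43 to 15.4 in CL shoots. 1-FEHw2 stood near the top of every array, and its group means lay between percentiles 93.7 and 99.4. A percentile reflects the binding of its own probes too, so it does not rank the 2 genes against each other.

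**Figure D4:**
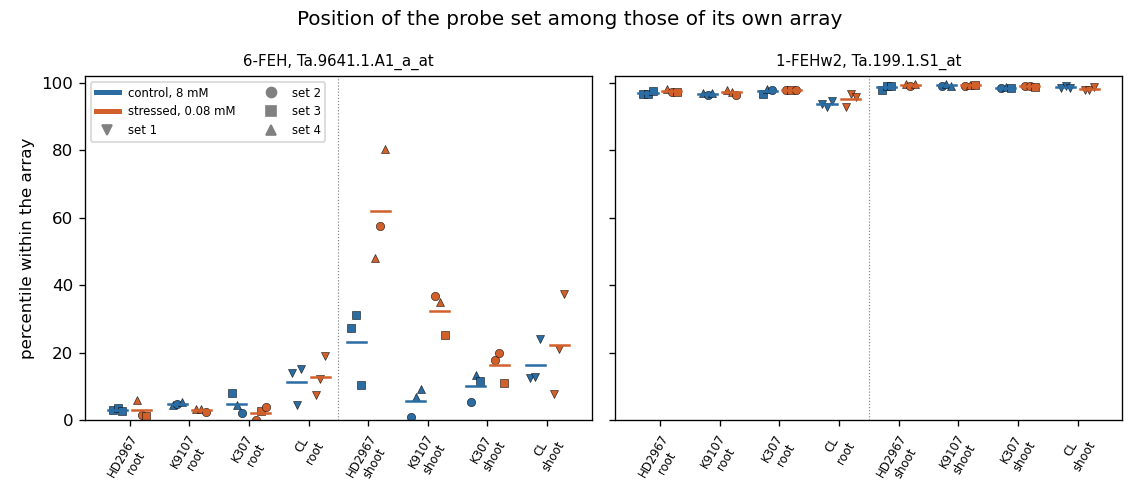
Percentile of the A1_a_at probe set of 6-FEH (left) and 1-FEHw2 (right) among all probe sets of the same array (vertical axes), 1 point per array, by genotype and tissue; blue is control, orange is stressed and bars are group means. The 6-FEH probe set reaches 80.4 in a stressed HD2967 shoot, and the group means of 1-FEHw2 all lie at 93.7 or higher.

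1-FEHw2, which codes for an enzyme of the 1-FEH type, was higher in shoots than in roots on both nitrogen supplies, averaged over HD2967, K9107 and K307 and also in CL, and no response to nitrogen passed. In HD2967 it read 9.81, 9.75 and 10.03 in control roots and 10.17, 10.95 and 11.04 in control shoots, all in set 3. In K9107 it read 10.58, 9.65 and 10.57 in control roots and 10.92, 12.15 and 11.70 in control shoots. Its control values in K307 were 9.68, 11.14 and 10.19 in roots and 10.43, 11.51 and 10.44 in shoots. In each set and on each supply, every shoot read above every root, with differences of 0.75 to 2.04 in all 8 comparisons within a set.

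Averaged over HD2967, K9107 and K307, roots minus shoots for 1-FEHw2 was -0.88 ± 0.15 at control nitrogen (limma adjusted p = 6.04e-06), a 1.84-fold higher level in shoots (95% interval 1.497 to 2.26). At low nitrogen it was -1.05 ± 0.15 (limma adjusted p = 2.57e-07), 2.08-fold (1.69 to 2.55). The background is 17.5% and 16.6% of probe sets lower in roots. Leaving out 1 array at a time moved these values only over -0.97 to -0.82 and -1.11 to -0.98, and no other setting lost either call.

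CL control roots read 5.10, 4.68 and 5.33 for 1-FEHw2 and CL control shoots 6.69, 7.51 and 7.04. At low nitrogen the CL roots read 4.65, 6.02 and 5.73 and the CL shoots 6.44, 6.71 and 7.23. No root overlapped a shoot on either supply. Roots minus shoots was -2.04 ± 0.25 at control (limma adjusted p = 1.02e-07, against 6.86% of probe sets lower) and -1.33 ± 0.25 at low nitrogen (limma adjusted p = 0.000184, against 7.14%). The latter did not pass with no set term (0.0512), and without CL stressed root array 1, whose labels conflict, it was -0.92 and passed (0.00665).

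The nitrogen response of 1-FEHw2 in shoots was 0.21 ± 0.13 on average (limma adjusted p = 0.524), and the estimates were 0.54 ± 0.34 for HD2967, 0.12 ± 0.27 for K9107, 0.45 ± 0.26 for K307 and -0.28 ± 0.25 for CL. HD2967 stressed shoots read 12.24, 10.86 and 12.39, K9107 stressed shoots 10.98, 11.83 and 11.39 and K307 stressed shoots 10.89, 10.92 and 10.84. Within sets the stressed shoots differed from the controls by 0.06 and -0.09 in K9107 and by 0.47 and 0.40 in K307. In K307 the stressed array or arrays of each shared set read above its control.

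In roots the response of 1-FEHw2 was 0.19 ± 0.13 on average (95% interval -0.07 to 0.46, limma adjusted p = 0.451). HD2967 stressed roots read 11.10, 9.94 and 9.91, K9107 stressed roots 10.93, 10.70 and 9.67 and K307 stressed roots 10.23, 10.16 and 10.20. The highest estimate was 0.43 ± 0.24 in CL (limma adjusted p = 0.505), where stressed array 1 read 4.65 and the others 6.02 and 5.73. Without that array, whose tissue entry conflicts with its title, the CL response was 0.84 (limma adjusted p = 0.0181) and the average was 0.30 (0.0304). Genotype by nitrogen did not pass for 1-FEHw2 in shoots (limma F-test adjusted p = 0.755) or in roots (0.896), nor did genotype at control nitrogen (0.522 and 0.486).

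**Figure D5:**
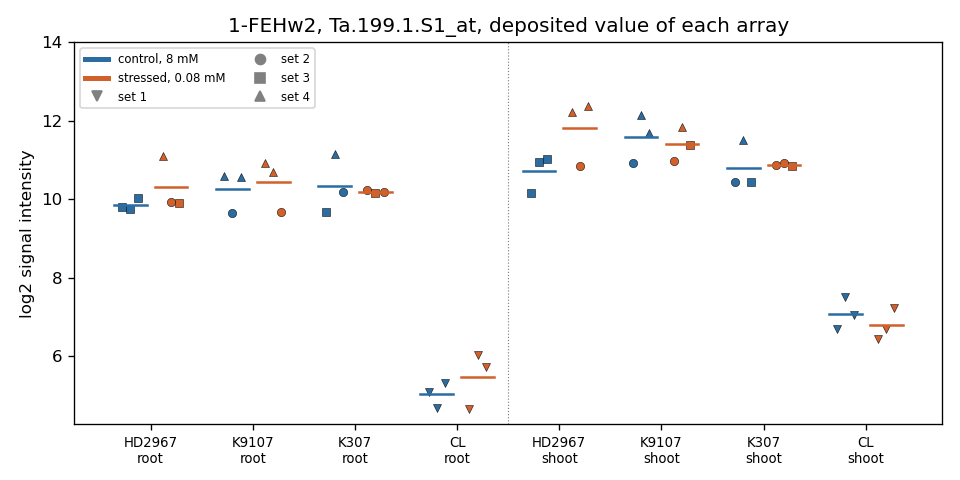
Deposited log2 signal intensity of 1-FEHw2 in each array (vertical axis), by genotype and tissue (horizontal axis). Blue is control (8 mM), orange is stressed (0.08 mM), marker shape gives the normalization set and bars are group means; within a set, shoots lie above roots by 0.75 to 2.04, and the CL arrays lie lower on their own scale.

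In the order of set-adjusted means of 1-FEHw2, every shoot group came before every root group. HD2967 stressed shoots were first at 11.46 ± 0.23 and K307 control shoots were the lowest shoots at 10.79 ± 0.01. They did not overlap the highest root group, K307 stressed roots at 10.55 ± 0.03, and K9107 control roots were last at 9.90 ± 0.09. All other neighbours overlapped. Across groups that are not neighbours, 1 HD2967 control shoot at 10.54 lay within the range of K307 stressed roots, 10.53 to 10.58. In CL, on its own scale, shoots at 7.08 ± 0.41 and 6.79 ± 0.40 stood above roots at 5.47 ± 0.72 and 5.04 ± 0.33.

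The named genes whose pattern was most like that of 1-FEHw2 over the 12 group means of HD2967, K9107 and K307 were PR5 (r = 0.92), LTP3 (0.91) and petC (0.91), out of 100 genes with a name. Over the 18 shoot arrays they were H+-ATPase (0.83), PRO1 (0.73) and COMT1 (0.60). For S1_at, the probe set of 6-FEH with the highest mean over all arrays, the most alike genes were Wx-A1 (0.78), Glc1 (0.75) and at2G04570 (0.73) over the group means. ATI (0.66), rbcl (0.65) and the gene named both atpA and IVR1 (0.59) were the most alike over the shoot arrays. For the responding probe sets, a comparison chosen after their values were seen, AGA.1 and DMAS1 came first over the group means, with r of 0.68 and 0.67 for A1_a_at and of 0.77 and 0.76 for A1_x_at. Over the shoot arrays the most alike were SAHH (0.60) and COMT1 (0.47) for A1_a_at and LTP3 (0.54) and DMAS1 (0.49) for A1_x_at. The points share arrays and a tissue contrast, and these correlations are descriptions.

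Few genes next to the exohydrolases in carbohydrate storage carry a name on this array. Of the fructan and sucrose genes listed, which included the fructosyltransferases, sucrose synthases and sucrose transporters, only 1 probe set matched. Its gene carries the names IVR1, for an invertase, and atpA, for an ATP synthase subunit, so what it reads is uncertain. It responded by 0.02 ± 0.09 in shoots (limma adjusted p = 0.962) and -0.06 ± 0.07 in roots (0.757), and roots minus shoots was 0.07 at control nitrogen.

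Of the 4 probe sets of starch synthesis genes, none passed for nitrogen in either tissue. Over all probe sets, 0.842% passed for the average response in shoots and 6.57% in roots. In shoots the values were 0.11 and -0.13 for the 2 probe sets of AGA.1 and 0.06 for AGP-S, both of which code for subunits of ADP-glucose pyrophosphorylase, and -0.03 for Wx-A1, a granule-bound starch synthase. Their median was 0.02, beside -0.02 over all probe sets. In roots they ran from -0.21 for Wx-A1 to 0.21 for AGP-S, with a median of -0.11 beside 0.00 over all probe sets. Averaged over HD2967, K9107 and K307, AGA.1 and AGP-S were lower in roots than in shoots on both supplies. Their roots minus shoots was -4.09 to -0.47 at control nitrogen. Over all probe sets, 17.5% were called lower in roots at control nitrogen and 16.6% at low nitrogen. Wx-A1, at 0.28 ± 0.11 at control nitrogen, did not pass (limma adjusted p = 0.0535). In CL at control nitrogen, 1 probe set of AGA.1 (-4.06) and AGP-S (-2.59) were lower in roots, where 6.86% of all probe sets were called lower. The other probe set of AGA.1 was at 0.32 (limma adjusted p = 0.271) and Wx-A1 was higher in roots (0.65, 0.0186).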

How the data were processed

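Array values were deposited as log2 signal intensities. The submitters' processing notes name RMA as the authors' method, and the series description adds an import into GeneSpring 14.5. Which arrays were normalized together is not given in the sources used here. Arrays were placed in normalization sets wherever sorted array medians were parted by over 0.1. Of 61290 probe sets, 111 controls were left out and 64 reporters kept, so 61179 were tested. limma 3.58.1 in R 4.3.3 (lmFit and eBayes, two-sided) fitted group and set, over 24 arrays per tissue (14 residual degrees of freedom) or over all 48 (30), with Benjamini-Hochberg adjustment and a threshold of 0.05. The median residual SD in shoots was 0.458 without a set term and 0.247 with it, and in roots 0.435 and 0.227. The code was tested on simulated data. Genes were named from the platform annotation, which pairs 1273 probe sets with 771 genes, of which 770 were found in RefSeq's table for IWGSC CS RefSeq v2.1. The members, lists, naming rule and tests, the set term included, were chosen with earlier results of these data known. Every probe set of 6-FEH and 1-FEHw2 was named. From the starch and sucrose lists, up to 10 genes were named per tissue, those that passed and then those of smallest p. Likeness was ranked by Pearson's r, with 3 genes each. Same-numbered control and stressed arrays had residual correlations from -0.522 to 0.556, and only in CL shoots did all 3 exceed 0.1 (0.115 to 0.228), where the block changed no call on the CL shoot response. The number of arrays limits the precision.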

Additional observations from a re-analysis of the deposited data

Results flagged for a closer look

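For 6-FEH, the response to low nitrogen differed between shoots and roots on 2 of its 3 probe sets by the test of the difference itself. The shoot response exceeded the root response by 1.16 ± 0.23 for A1_a_at (limma adjusted p = 0.00323) and by 1.04 ± 0.20 for A1_x_at (limma adjusted p = 0.00340). Groups of 3 arrays were not tested for single arrays that stand apart.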

How the results depend on the processing

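For 76 results, 2910 values under other settings were computed: 2820 kept the main call, 64 lost it, 26 gained one and 0 reversed a called direction, while 69 estimates that passed in neither setting changed sign. All p values given here in parentheses are limma adjusted p. The average shoot response of 6-FEH A1_a_at was 1.01 (0.198) with no set term, 1.37 (0.0889) without CL, 0.63 (0.245) without HD2967 in the average and 1.03 (0.385) with the replicate block. For A1_x_at these were 0.94 (0.0588), 1.18 (0.0637), 0.65 (0.145) and 0.86 (0.338). Both calls held under renewed quantile normalization (0.97 and 0.89), median centring (1.06 and 0.99) and the fit of all 48 arrays (1.05 and 0.92). Leaving out 1 shoot array gave 0.83 to 1.21 and 0.77 to 1.02. The first call was lost, at 0.95 to 1.07, without any stressed array of K9107, K307 or CL, without K307 controls 1 or 2, without K9107 control 1 or without HD2967 control 3. The second was lost, at 0.82 to 0.91, without K307 controls 1 or 2, K9107 control 1, K307 stressed 3 or HD2967 control 2. The tissue by nitrogen difference was 1.16 and 1.04 with no set term (0.198 and 0.111) and 0.71 and 0.69 without HD2967 in the average (0.219 and 0.174). With the replicate block it held, at 1.16 (0.0486) and 1.04 (0.0346). Root minus shoot at control nitrogen was lost for A1_a_at at -0.46 with no set term (0.292), -0.37 under quantile normalization (0.182) and -0.46 without CL (0.0772). For S1_at it was lost at 0.27 with no set term (0.700), 0.21 under quantile normalization (0.362) and 0.26 under median centring (0.193). The replicate block gave -0.39 for A1_a_at and 0.46 for S1_at, but these values are no test of root minus shoot, as explained below. Leaving out 1 array gave -0.57 to -0.39 and 0.18 to 0.33, and -0.50 to -0.30 for A1_x_at. For A1_a_at the call was lost without any HD2967 root control, HD2967 shoot control 1 or 2, K307 root or shoot controls 2 or 3, K9107 root controls 1 or 3 or K9107 shoot controls 2 or 3. That on S1_at was lost without K9107 root controls 1 or 2, K9107 shoot controls 1 or 3, K307 root controls 2 or 3, K307 shoot control 3, HD2967 root controls 2 or 3 or HD2967 shoot controls 1 or 3. A1_x_at passed without HD2967 stressed shoots 1 or 3, HD2967 control shoot 3, HD2967 control root 1, K307 control root 2 or K9107 stressed shoot 1. The average root response of 1-FEHw2 ran over 0.13 to 0.30 and, among these, passed only without CL stressed root 1. The HD2967 shoot response passed by itself on A1_a_at and A1_x_at with no set term (2.99 and 2.36), under quantile normalization (2.22 and 1.61) and under median centring (2.58 and 1.95). In K9107 shoots both passed without HD2967 stressed array 3 (1.45 and 1.498), and A1_a_at passed in a fit of the K9107 shoots alone (1.57, 0.0398). Genotype at control nitrogen passed for 1-FEHw2 in roots without CL (0.0377). The replicate block was formed within genotype and tissue, so it gives no test of root minus shoot or of genotype at control nitrogen. The counts of calls kept and lost above include such values. The causes of the changed calls were not tested. The means of A1_a_at and A1_x_at over a tissue's arrays lie below the median of all probe sets, so the filter on dim probe sets gave them no value, and a fit of HD2967 shoots alone could not be made, since no set is shared. The methods' t-test at an unadjusted p of at most 0.1 passed 11194 probe sets in HD2967 shoots, 1565 in K9107, 3665 in K307 and 10320 in CL, and 0, 0, 0 and 3 after Benjamini-Hochberg adjustment.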
